A study of Homo sapiens with 6 samples.

Results

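NFIB is a transcription factor of the nuclear factor I (NFI) family, whose members bind DNA as dimers through an amino-terminal domain at palindromes with the consensus TTGGC, a spacer of 5 bases and GCCAA, and at single TTGGCA cores. The family is known for its roles in the development of lung, brain and muscle. The part of NFIB outside the DNA-binding domain holds an intrinsically disordered region (IDR), a stretch of protein without a fixed fold, and such regions can bring transcription factors together on chromatin. Here RNA from Ewing sarcoma cells with wild-type NFIB (NFIB WT) was compared directly with RNA from cells with NFIB lacking its IDR (NFIB ΔIDR), which asks which transcripts depend on that region. The comparison used 4 of the 6 libraries of the experiment, 2 per construct, chosen by their genotype labels, and the remaining 2 libraries, from cells with an empty expression vector (EV), served only to show where the control level lies.

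The cells were SKNMC, a Ewing sarcoma line that carries the EWS-FLI1 fusion, grown in RPMI-1640 with serum and given no other treatment. Both NFIB proteins carried a V5 tag and were delivered, like the empty vector, by lentivirus followed by puromycin selection. All 3 groups are therefore selected pools of cells that kept their endogenous NFIB gene. The study's methods call the RNA-seq replicates biological duplicates, and neither they nor the labels say whether those came from separate infections, so p values measure only the spread between these libraries.

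The libraries were made from total RNA with the CORALL kit and held between 6664231 and 8465572 counts in 22604 genes, and levels are given as CPM, a gene's counts relative to the library total, scaled by TMM (a factor that evens out differences in composition) over all 6 libraries. Differences between the constructs are given as a log2 ratio, the fitted log2 fold change of NFIB WT over NFIB ΔIDR, ± its SE, with n = 2 libraries per construct, and a negative value is higher with NFIB ΔIDR. They were tested with edgeR's quasi-likelihood F test, with p adjusted over all genes tested. The pairs of replicates were unequal. Across the 13244 genes tested, the SD of the log2 difference within a pair was 0.25 in the EV and NFIB ΔIDR pairs and 0.35 in the NFIB WT pair. The NFIB WT pair also differed in small structural RNAs, which summed to 3442 CPM in replicate 1 and 2272 CPM in replicate 2, against 1900 to 2283 CPM in the other libraries. Among Ewing sarcoma identity genes, all 13 in the table were tested, and CCND1 and NPY1R (15.4%, against 2.7% over all genes tested) were higher with NFIB WT. Of 10 endothelial markers, 6 had at most 5 counts in any library. Of 14 leukocyte markers, PTPRC stood at 251 to 309 CPM in all 6 libraries, and the remaining 13 did not exceed 4.18 CPM in any library. PTPRC did not pass the test between the constructs (log2 ratio -0.18 ± 0.11, adjusted p = 0.339).

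NFIB RNA was higher with NFIB ΔIDR than with NFIB WT. It stood at 175 and 146 CPM in the EV libraries, at 968 and 1053 CPM in the NFIB WT libraries and at 2218 and 2308 CPM in the NFIB ΔIDR libraries. The 3 groups did not overlap, and both constructs lay above the control. The level with NFIB ΔIDR was 2.26-fold the NFIB WT level (log2 ratio -1.17 ± 0.09, adjusted p = 0.00122). Without NFIB ΔIDR replicate 2 the adjusted p was 0.0596. NFIB lies on chromosome 9 of hg19 (14081842 to 14398982). Counts of NFIB pool the endogenous transcript with that of the construct, and the NFIB ΔIDR transcript lacks the segment that codes for the IDR. The loss of the IDR and the higher RNA level of its construct cannot be told apart in the comparisons that follow.

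NFIA, a paralog that binds the same sites, was lower with NFIB WT. Its level was 93.6 and 85.1 CPM with EV, 83.1 and 75.1 CPM with NFIB ΔIDR, and 41.4 and 35.3 CPM with NFIB WT. The NFIB WT libraries lay below all others, and the control lay next to NFIB ΔIDR (log2 ratio -1.06 ± 0.13, adjusted p = 0.00514). The other family members, NFIC and NFIX, had log2 fold changes of -0.67 (adjusted p = 0.0785) and -0.18 (adjusted p = 0.563) and did not pass the test.

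**Figure D1:**
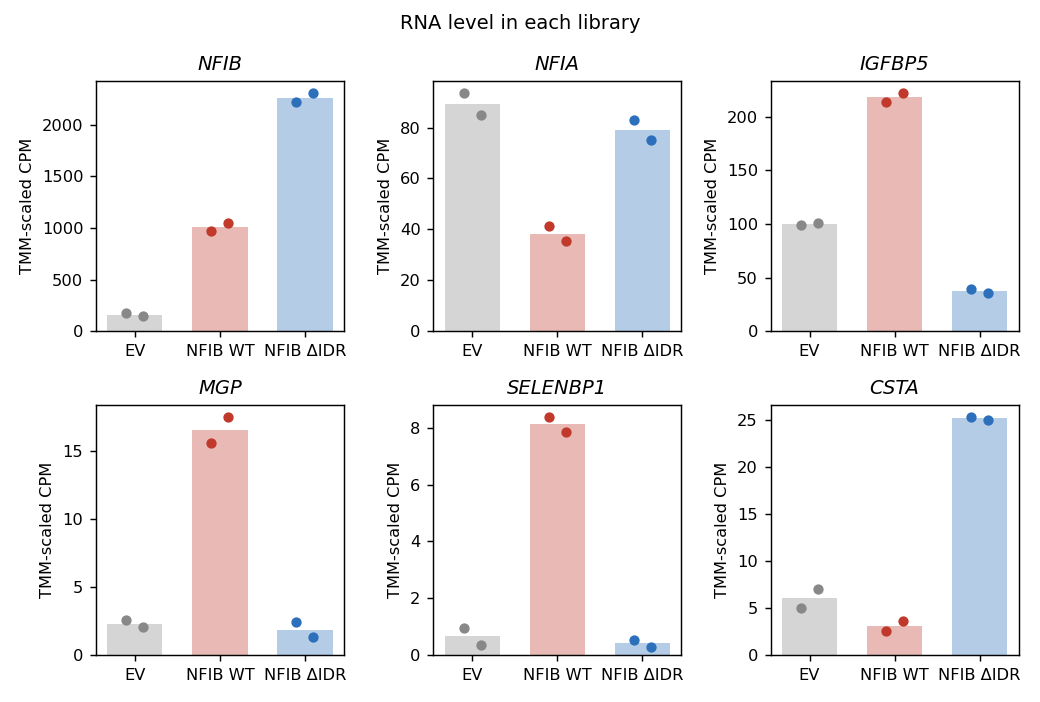
RNA level in TMM-scaled CPM (linear axes from 0) of NFIB, NFIA, IGFBP5, MGP, SELENBP1 and CSTA in the EV, NFIB WT and NFIB ΔIDR groups. Each point is 1 of the 2 libraries of its group and bars are their means; SELENBP1 and MGP stand near the control with NFIB ΔIDR, whereas IGFBP5 lies below it and CSTA above it.

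At an adjusted p under 0.05, 680 (5.13%) of 13244 genes tested differed between the constructs, 358 (2.7%) with the higher level in NFIB WT and 322 (2.43%) in NFIB ΔIDR. By another rule, a fold of 1.5 with an unadjusted p under 0.05, 556 (4.2%) and 735 (5.55%) did. In the 680 genes the libraries of the constructs did not overlap, which their choice by that same difference favours. Their median fold was 1.69 for genes higher with NFIB WT and 1.84 for genes higher with NFIB ΔIDR, and 105 and 133 genes differed at least 2-fold. In the plot of mean levels the called genes run along both sides of the diagonal over the whole range of abundance. Leaving out a library changed the counts most. Without NFIB WT replicate 1 or 2, 1392 or 2264 genes were higher with NFIB WT and 1155 or 2223 with NFIB ΔIDR. Without NFIB ΔIDR replicate 1 or 2, where the unequal NFIB WT pair alone set the spread, 46 or 13 were higher with NFIB WT and 35 or 7 with NFIB ΔIDR. IGFBP5, SELENBP1, MGP, IFI44L, METTL7A, FAM167A, ANGPTL4, FOS, CSTA, CXCL10, FGF12 and DEC1 are the genes named by rule that remained called without NFIB ΔIDR replicate 2, and all but DEC1 also did so without NFIB ΔIDR replicate 1.

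**Figure D2:**
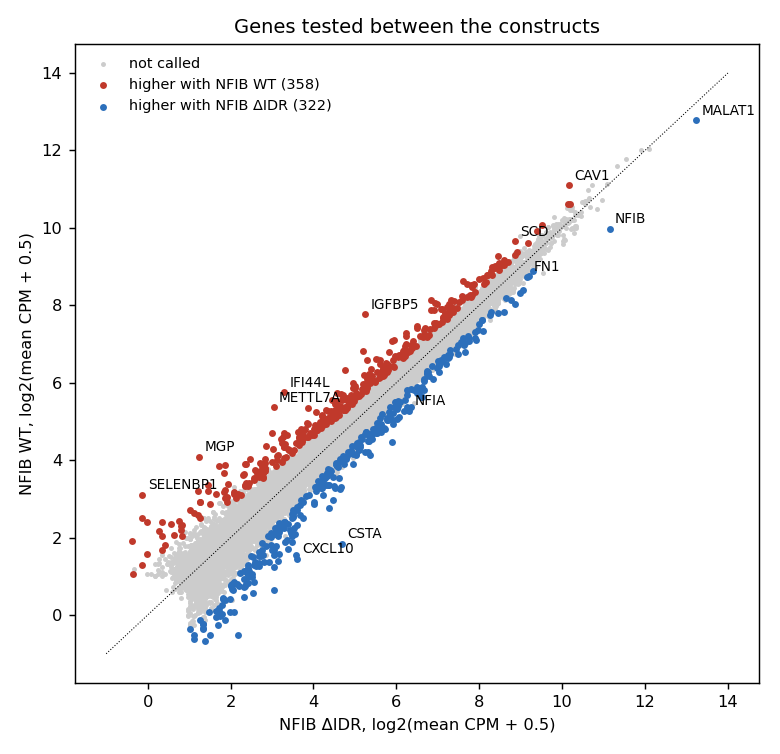
Mean level of each of the 13244 genes tested with NFIB ΔIDR (horizontal) and NFIB WT (vertical), as log2(mean CPM + 0.5), with the line of equal level dotted. The 358 genes higher with NFIB WT are red and the 322 higher with NFIB ΔIDR are blue, and NFIB and MALAT1 are among the most abundant called genes.

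Calls were spread over base composition and length unevenly. In the low, middle and high classes of GC content, 2.1%, 2.62% and 3.6% of genes were higher with NFIB WT, and 2.95%, 3.04% and 1.33% were higher with NFIB ΔIDR. The NFIB WT replicates differed along the same axis, with a median log2 difference of 0.09 between replicate 1 and 2 in the low class and -0.10 in the high class. The corresponding values for the NFIB ΔIDR replicates were 0.01 and 0.01. When GC content and gene length were corrected for, 616 genes were higher with NFIB WT and 415 with NFIB ΔIDR, and these held 349 and 306 of the genes called without it. The median log2 fold change per chromosome ranged from -0.06 to 0.05.

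SELENBP1, FAM212B and MGP had the highest fold toward NFIB WT. SELENBP1, a selenium-binding protein, stood at 8.39 and 7.86 CPM with NFIB WT, at 0.539 and 0.292 CPM with NFIB ΔIDR and at 0.950 and 0.361 CPM with EV. NFIB ΔIDR thus lay at the control level, with 4 and 2 counts, and NFIB WT was 18.4-fold higher (log2 ratio 4.20 ± 0.37, adjusted p = 0.00148). MGP, an inhibitor of calcification in the extracellular matrix, had the same arrangement of groups. Its level was 15.6 and 17.5 CPM with NFIB WT, 2.43 and 1.31 CPM in the NFIB ΔIDR pair and 2.58 and 2.05 CPM with EV (log2 ratio 3.11 ± 0.26, adjusted p = 0.00131). SELENBP1 lies on chromosome 1 of hg19 (151336780 to 151345183) and MGP on chromosome 12 (15033798 to 15038791).

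FAM212B rested on very few reads outside NFIB WT, at 5.10 and 5.29 CPM with NFIB WT, 0.674 and 0.146 CPM in the NFIB ΔIDR pair and 0 and 0.722 CPM with EV. Its log2 fold change of 3.56 (SE 0.46, adjusted p = 0.00589) became 4.98 when NFIB ΔIDR replicate 1 was left out and 2.92 when replicate 2 was. EPHB2, a receptor for ephrin-B ligands, had 8.54 and 9.03 CPM with NFIB WT, 2.02 and 1.61 CPM in the NFIB ΔIDR pair and 2.98 and 2.77 CPM with EV. NFIB WT was 4.76-fold NFIB ΔIDR (adjusted p = 0.00490).

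Other leading genes had NFIB WT above the control and NFIB ΔIDR below it. IGFBP5, a secreted partner of insulin-like growth factors, stood at 214 and 222 CPM with NFIB WT, 99.4 and 100.5 CPM with EV and 39.3 and 35.9 CPM with NFIB ΔIDR. The 3 groups were ordered without overlap, and NFIB WT was 5.74-fold NFIB ΔIDR (log2 ratio 2.52 ± 0.12, adjusted p = 3.96e-05). IFI44L, an interferon-inducible gene, followed the same order with 55 and 52.5 CPM, 29.7 and 35.7 CPM and 9.43 and 9.20 CPM in NFIB WT, EV and NFIB ΔIDR (log2 ratio 2.51 ± 0.14, adjusted p = 0.000108). METTL7A, a membrane-bound methyltransferase, had 44.8 and 36.6 CPM, 22.4 and 18.1 CPM and 9.16 and 6.28 CPM in the same groups (log2 ratio 2.37 ± 0.19, adjusted p = 0.00122). These genes lie on chromosomes 2 (IGFBP5, 217536828 to 217560272), 1 (IFI44L, 79085587 to 79111830) and 12 (METTL7A, 51317255 to 51326293) of hg19. FAM167A, the solute carrier relative SLC35F1, HIF3A, the P-cadherin gene CDH3 and BMP7 complete the leading genes, with log2 fold changes of 2.28, 2.15, 2.10, 1.96 and 1.94.

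**Figure D3:**
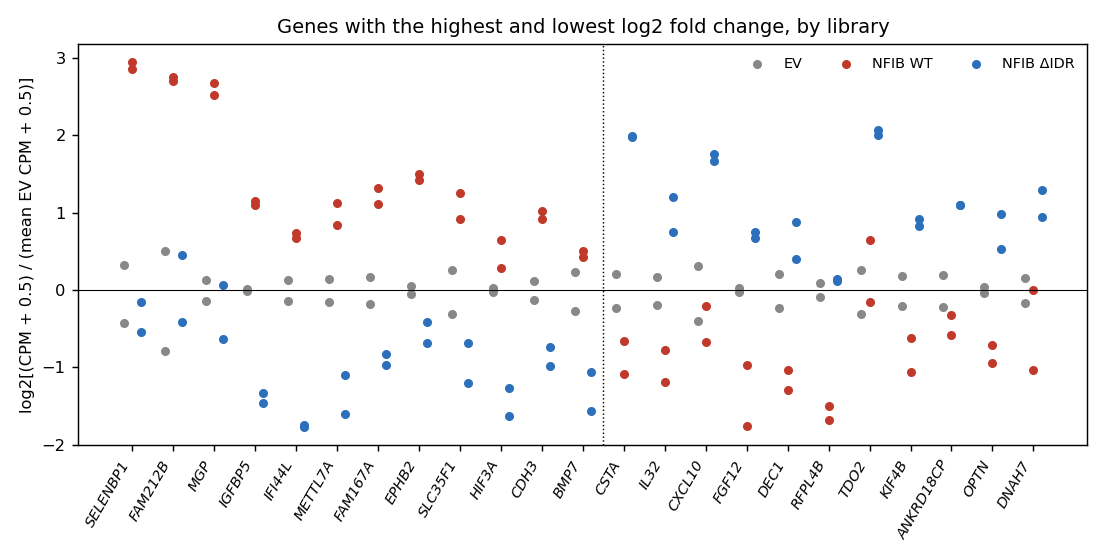
Genes with the highest (left of the dotted line, 12) and the lowest (right, 11) log2 fold change by the naming rule. Each point is a library, as log2 of its (CPM + 0.5) over the mean EV (CPM + 0.5), so 0 is the control; SELENBP1, FAM212B and MGP have NFIB ΔIDR around 0, while IFI44L has NFIB ΔIDR at its lowest point on the left side.

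Promoters of several named genes, some of them leading genes, held the NFI core TTGGCA, the sequence NFI proteins recognise. A choice of these is shown, so the printed set does not give a share. DDR2, P4HA2 and PHKA2, all higher with NFIB WT, also held the core and are not shown. Promoters on chromosomes 8 and 18 were not considered for printing. The sequences are RefSeq entries of GRCh38.p14 upstream of the transcription start, 5′ to 3′ on the strand of the gene, with the core (TTGGCA, or TGCCAA when it lies on the opposite strand) in capitals. The windows are chr2:216695630-216695675 (minus strand, IGFBP5), chr12:50924844-50924889 (plus, METTL7A), chr1:111755824-111755869 (minus, FAM212B), chr1:78620285-78620421 (plus, IFI44L), chr1:78649717-78649762 (plus, IFI44), chr11:71448415-71448460 (minus, DHCR7), chr19:8363967-8364012 (plus, ANGPTL4) and chr4:155903474-155903541 (plus, TDO2).
IGFBP5: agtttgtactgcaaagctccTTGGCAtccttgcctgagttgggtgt
METTL7A: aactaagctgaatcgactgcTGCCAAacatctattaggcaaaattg
FAM212B: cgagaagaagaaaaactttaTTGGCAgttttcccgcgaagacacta
IFI44L: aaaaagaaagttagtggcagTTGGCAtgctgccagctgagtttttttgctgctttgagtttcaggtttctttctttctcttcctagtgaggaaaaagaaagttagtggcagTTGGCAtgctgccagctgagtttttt
IFI44: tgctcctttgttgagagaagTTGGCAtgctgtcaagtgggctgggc
DHCR7: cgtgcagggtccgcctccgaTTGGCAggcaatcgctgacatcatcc
ANGPTL4: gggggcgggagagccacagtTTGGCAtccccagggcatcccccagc
TDO2: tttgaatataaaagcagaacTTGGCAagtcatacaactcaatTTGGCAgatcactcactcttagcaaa

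The first 7 of these genes were higher with NFIB WT, and TDO2 was higher with NFIB ΔIDR. IFI44L and TDO2 each held 2 cores, and in IFI44L the second core sits in a repeat of the bases around the first. Over all promoters of tested genes with a RefSeq entry (250 bases before to 50 after the start, both strands searched), 936 of 10430 (8.97%) held TTGGCA. The share was 37 of 277 (13.4%) for genes higher with NFIB WT and 28 of 240 (11.7%) for genes higher with NFIB ΔIDR. The full palindrome (TTGGC, any 5 bases, GCCAA), which contains a TTGGCA match only where its spacer begins with A or ends with T, was found in 6 of 10430 promoters (0.0575%), in 0 of 277 and in 1 of 240. The repeat unit GGAAGGAA, the core of the microsatellites bound by EWS-FLI1, was in 3.3%, 4.33% and 4.58% of promoters over all genes, genes higher with NFIB WT and genes higher with NFIB ΔIDR. A match describes the letters of the window, not binding.

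Genes that were higher with NFIB ΔIDR included a cystatin, immune signalling genes and a chemokine. CSTA, which blocks cysteine proteases in epithelial cells, stood at 25.3 and 25 CPM with NFIB ΔIDR, 5.02 and 6.98 CPM with EV and 2.55 and 3.61 CPM with NFIB WT. NFIB ΔIDR lay far above both other groups, at 8.10-fold NFIB WT (log2 ratio -3.02 ± 0.20, adjusted p = 0.000365). It lies on chromosome 3 of hg19 (122044095 to 122060816). CXCL10, a chemokine that attracts T cells, was at 11.2 and 12 CPM with NFIB ΔIDR, 4.07 and 2.29 CPM with EV and 2.70 and 1.81 CPM with NFIB WT (log2 ratio -2.38 ± 0.25, adjusted p = 0.00336). TDO2, which begins tryptophan breakdown, was at 8.08 and 8.47 CPM with NFIB ΔIDR and at 1.22 to 2.85 CPM in the other 4 libraries, so that EV and NFIB WT overlapped (log2 ratio -1.99 ± 0.31, adjusted p = 0.0114).

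RFPL4B had NFIB WT apart from the other groups, with 1.20 and 1.42 CPM with NFIB WT, 5.52 and 5.41 CPM in the NFIB ΔIDR pair and 4.61 and 5.30 CPM with EV, so that the control lay just under NFIB ΔIDR (log2 ratio -2.05 ± 0.30, adjusted p = 0.0105). FGF12, an intracellular FGF relative, had the control between the constructs. It was at 11.7 and 11.1 CPM with NFIB ΔIDR, 6.92 and 6.62 CPM with EV and 1.65 and 3.22 CPM with NFIB WT, and its log2 fold change of -2.20 (adjusted p = 0.00589) became -2.79 without NFIB WT replicate 2. The cytokine IL32, DEC1, KIF4B, ANKRD18CP, the autophagy receptor OPTN and the axonemal dynein DNAH7 had log2 fold changes of -2.44, -2.07, -1.86, -1.85, -1.77 and -1.73. KIF4B is a retrocopy of KIF4A, so its reads may not be separable, and DESeq2 did not call ANKRD18CP. DNAH7 had 8 and 23 counts with NFIB WT, and stood at -1.25 without NFIB WT replicate 1 and at -2.55 without replicate 2. The control was nearer NFIB WT for ANKRD18CP and DNAH7, nearer NFIB ΔIDR for DEC1, and near the midpoint for IL32, KIF4B and OPTN.

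Several of the most abundant transcripts differed as well, by smaller folds. CAV1, the coat protein of caveolae, stood at 2534 and 1881 CPM with NFIB WT, 1154 and 1126 CPM in the NFIB ΔIDR pair and 1234 and 1189 CPM with EV (log2 ratio 0.94 ± 0.13, adjusted p = 0.00897). NFIB WT was above all other libraries, and its replicates differed from each other by more than those of the other groups did. CCND1, a cyclin of G1 phase, and HMCN1, a basement membrane protein, were 1.34- and 1.43-fold higher with NFIB WT. TUBA1B, an alpha-tubulin with near-identical paralogs, and ATP5B, a subunit of the ATP synthase, were 1.46- and 1.36-fold higher. Toward NFIB ΔIDR, the nuclear RNA MALAT1 stood at 9836 and 9358 CPM against 6594 and 7458 CPM with NFIB WT and 7477 and 7348 CPM with EV (log2 ratio -0.46 ± 0.09, adjusted p = 0.0276). The fibronectin gene FN1, the RNA processing factor SON, the microtubule regulator STMN1 and the imprinted antisense RNA KCNQ1OT1 were 1.36-, 1.33-, 1.35- and 1.58-fold higher. With the correction for GC content and length, MALAT1, FN1, STMN1 and KCNQ1OT1 missed the threshold, with log2 fold changes of -0.39, -0.38, -0.39 and -0.34 (-0.46, -0.45, -0.43 and -0.66 without it), and DESeq2 did not call SON.

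The control lay between the constructs for most called genes, which the choice of genes by their difference favours. Of 358 genes higher with NFIB WT, EV was nearer NFIB ΔIDR in 161 and nearer NFIB WT in 177, past NFIB WT in 11 and below NFIB ΔIDR in 9. Of 322 genes higher with NFIB ΔIDR, NFIB itself included, EV was nearer NFIB ΔIDR in 131 and nearer NFIB WT in 167, above NFIB ΔIDR in 9 and below NFIB WT in 15. Genes of the first kind with the control below NFIB ΔIDR included ANGPTL4, a secreted inhibitor of lipoprotein lipase. It stood at 25 and 25.8 CPM with NFIB WT, 9.03 and 9.50 CPM in the NFIB ΔIDR pair and 8.55 and 6.62 CPM with EV (log2 ratio 1.44 ± 0.15, adjusted p = 0.00336). ENPP2, the enzyme autotaxin that makes lysophosphatidic acid, had 8.54 and 7.86 CPM, 2.96 and 2.34 CPM and 1.09 and 1.32 CPM in the same order (log2 ratio 1.60 ± 0.25, adjusted p = 0.0115).

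Cholesterol synthesis genes were the list with the largest share of members called higher with NFIB WT, against 2.7% over all genes tested. Of 25 tested, 13 (52%) were higher with NFIB WT and 0 with NFIB ΔIDR, and their median log2 fold change was 0.47 against 0.00 over all genes tested. They spanned the pathway from HMGCS1, which acts before mevalonate, through IDI1, FDPS, FDFT1, SQLE and LSS, which build lanosterol, to MSMO1 and DHCR7, which finish the sterol, and included the regulators SREBF2 and INSIG1. In all 13 the control lay nearer to NFIB WT than to NFIB ΔIDR. DHCR7 stood at 141 and 126 CPM with NFIB WT, 94.4 and 93.3 CPM with EV and 58.7 and 59.3 CPM with NFIB ΔIDR (log2 ratio 1.17 ± 0.11, adjusted p = 0.00246). INSIG1, a sterol sensor, had 86.2 and 76.1 CPM, 84.1 and 72.1 CPM and 41.5 and 41.6 CPM in the same order (log2 ratio 0.95 ± 0.12, adjusted p = 0.00583). For INSIG1 the NFIB WT and EV libraries overlapped, and NFIB ΔIDR was below both. PMVK, with a log2 fold change of -0.08, was the single member below 0. At an unadjusted p under 0.05, 18 members were higher with NFIB WT and 0 with NFIB ΔIDR, and DESeq2 called 12 and 0.

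Of 12 fatty acid synthesis genes, 5 (41.7%, against 2.7% over all genes tested) were higher with NFIB WT and 0 with NFIB ΔIDR (median log2 fold change 0.50). SCD, which puts the double bond into stearate, stood at 812 and 792 CPM with NFIB WT, 726 and 745 CPM with EV and 456 and 474 CPM with NFIB ΔIDR (log2 ratio 0.78 ± 0.09, adjusted p = 0.00514). The NFIB ΔIDR libraries lay below all others. ACLY, which makes cytosolic acetyl-CoA, FASN, the fatty acid synthase, and the desaturase genes FADS1 and FADS2 had log2 fold changes of 0.59, 0.54, 0.47 and 0.84. FADS1 and FADS2 overlap on opposite strands, and the sources used here do not say whether counting used strand. In all 5 the control was nearer NFIB WT, and in 4 of the 18 genes of both lists (HMGCS1, SQLE, FDFT1 and FADS1) it was above NFIB WT. Without NFIB ΔIDR replicate 1 or 2, 2 or 0 of the cholesterol genes and 0 of the fatty acid genes were called, and without NFIB WT replicate 1 or 2, 18 of the cholesterol genes and 8 or 7 of the fatty acid genes were.

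**Figure D4:**
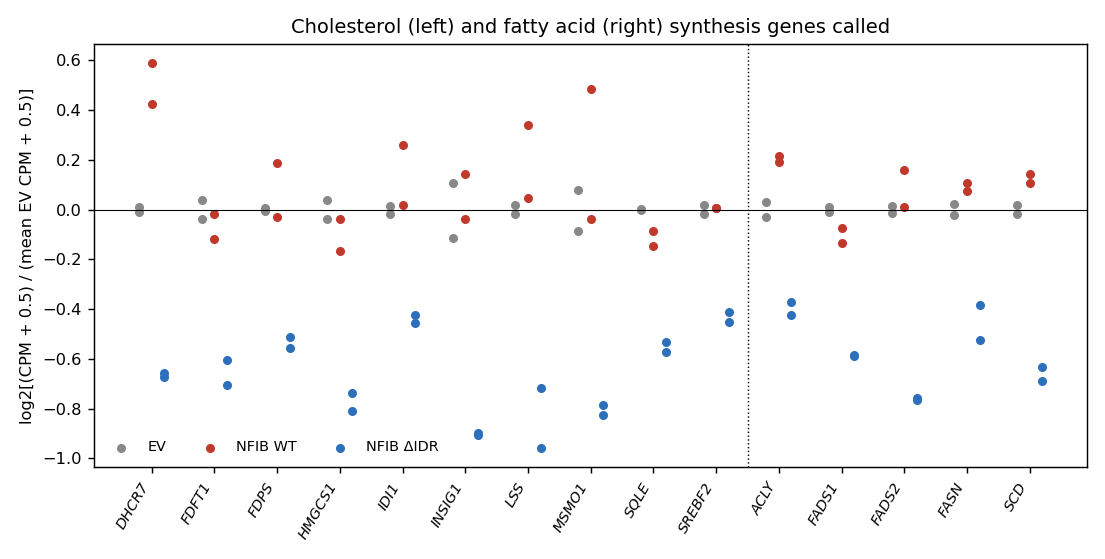
Cholesterol synthesis genes (left of the dotted line, 10) and fatty acid synthesis genes (right, 5) called higher with NFIB WT, each point a library as log2 of its (CPM + 0.5) over the mean EV (CPM + 0.5). The NFIB ΔIDR libraries lie below the EV libraries in every gene shown, and NFIB WT lies around the control, with DHCR7 the clearest above it.

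Genes of the extracellular matrix moved both ways. Of 35 matrix glycoproteins and proteoglycans tested, 6 (17.1%, against 2.7% over all genes tested) were higher with NFIB WT (DCN, ELN, FBN2, LUM, MGP and TNC). Toward NFIB ΔIDR, 2 (5.71%, against 2.43%) were called, FN1 and LAMA2, and the median log2 fold change of the list was 0.05. DCN, a small proteoglycan that decorates collagen fibrils, stood at 151 and 142 CPM with NFIB WT, 85.5 and 90.7 CPM with EV and 73.4 and 75.1 CPM with NFIB ΔIDR (log2 ratio 0.97 ± 0.11, adjusted p = 0.00398). TNC, an adhesion-modulating glycoprotein, had 34.2 and 40.4 CPM, 19.8 and 18.1 CPM and 14.8 and 17.7 CPM in the same order (log2 ratio 1.19 ± 0.15, adjusted p = 0.00589). In both genes NFIB WT was above all other libraries.

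Of 22 collagen genes, 2 (9.09%, against 2.7% over all genes tested) were higher with NFIB WT (COL16A1 and COL1A2) and 3 (13.6%, against 2.43%) with NFIB ΔIDR (COL1A1, COL11A1 and COL14A1). The 2 chains of type I collagen thus fell on opposite sides. COL1A2 had 81.2 and 89.9 CPM in the NFIB WT libraries and 56.6 and 62.8 CPM in the NFIB ΔIDR libraries (log2 ratio 0.51, adjusted p = 0.0432), and COL1A1 at 3.15 and 4.38 CPM in the former against 7.82 and 8.18 CPM with NFIB ΔIDR (log2 ratio -1.08, adjusted p = 0.0375). DESeq2 did not call COL1A1. Of 27 matrix enzymes and inhibitors, 4 (14.8%, against 2.7%) were higher with NFIB WT (FAP, LOX, P4HA2 and TIMP1) and 1 (3.7%, against 2.43%), the protease inhibitor SERPINE2, with NFIB ΔIDR. DESeq2 did not call FAP or P4HA2. LOX, which cross-links collagen, stood at 287 and 239 CPM with NFIB WT, 174 and 171 CPM with EV and 158 and 149 CPM with NFIB ΔIDR (log2 ratio 0.76 ± 0.12, adjusted p = 0.0118). Of 13 fibroblast markers, 5 (38.5%, against 2.7%) were higher with NFIB WT (COL1A2, DCN, FAP, LOX and LUM) and 2 (15.4%, against 2.43%) with NFIB ΔIDR (COL1A1 and the receptor gene PDGFRA). All of these but PDGFRA were already counted in the matrix lists above, so the shares reuse those calls. The summed level of the markers was 1058 CPM in each NFIB WT library against 707 and 720 CPM with NFIB ΔIDR and 761 and 795 CPM with EV. In bulk RNA, fewer cells that express a gene and less RNA per cell cannot be told apart.

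In the insulin-like growth factor axis, 3 of 17 genes (17.6%, against 2.7% over all genes tested) were higher with NFIB WT (IGFBP4, IGFBP5 and PAPPA) and 2 (11.8%, against 2.43%) with NFIB ΔIDR (IGFBP3 and STC2). PAPPA, the protease that cleaves IGFBP4, stood at 626 and 607 CPM with NFIB WT, 412 and 396 CPM with EV and 353 and 348 CPM with NFIB ΔIDR (log2 ratio 0.80 ± 0.09, adjusted p = 0.00493). STC2, an inhibitor of that protease, was 1.76-fold higher with NFIB ΔIDR (adjusted p = 0.0161), a call that DESeq2 did not make. The binding protein genes thus split, with IGFBP4 at 54.1 and 52 CPM with NFIB WT against 26.8 and 19.3 CPM with NFIB ΔIDR, and IGFBP3 at 1.80 and 1.16 CPM against 5.39 and 4.38 CPM.

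Of 40 genes of TGF-beta and BMP signalling, 5 (12.5%, against 2.7% over all genes tested) were higher with NFIB WT (BMP7, FSTL1, ID4, SMAD3 and TGFBR1). Only BMP2 was higher with NFIB ΔIDR, a share of 2.5% near the 2.43% over all genes tested. The ligands BMP7 and BMP2 moved in opposite directions. BMP7 stood at 8.99 and 8.51 CPM with NFIB WT, 7.33 and 5.05 CPM with EV and 2.69 and 1.75 CPM with NFIB ΔIDR (log2 ratio 1.94 ± 0.27, adjusted p = 0.00739). BMP2 stood at 19.3 and 14.8 CPM with NFIB WT, 25.8 and 27.2 CPM with EV and 39.9 and 41.8 CPM with NFIB ΔIDR (log2 ratio -1.27 ± 0.15, adjusted p = 0.00514). Of 34 Wnt pathway genes, 17 had a log2 fold change above 0, with a median of 0.00, and 3 (8.82%, against 2.7% over all genes tested) were higher with NFIB WT: the ligand WNT5A, the receptor FZD4 and the secreted antagonist DKK2, with log2 fold changes of 0.89, 0.82 and 1.36. DESeq2 did not call FZD4.

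Of 44 axon guidance genes, 3 (6.82%, against 2.7% over all genes tested) were higher with NFIB WT, namely the netrin receptor DCC, the ephrin ligand EFNB1 and its receptor EPHB2, and 3 (6.82%, against 2.43%) with NFIB ΔIDR, namely the secreted cues SLIT2, SEMA3A and SEMA3C. SLIT2 stood at 95.4 and 101 CPM with NFIB ΔIDR, 65.1 and 65.7 CPM with EV and 48.4 and 49.1 CPM with NFIB WT (log2 ratio -1.02 ± 0.11, adjusted p = 0.00376). EFNB1 stood at 173 and 179 CPM with NFIB WT, 100.1 and 118 CPM with EV and 91.2 and 87.9 CPM with NFIB ΔIDR (log2 ratio 0.96 ± 0.10, adjusted p = 0.00373). Both genes were ordered without overlap, with the control in between. Cadherin genes also split, with CDH3 and MCAM higher with NFIB WT and CDH4 and CDH6 higher with NFIB ΔIDR, of 20 tested (10% each way, against 2.7% and 2.43%). DESeq2 did not call CDH4 or CDH6. Of the receptor tyrosine kinases and ligands, DDR2 and FGF2 were higher with NFIB WT and NRG1 and PDGFRA with NFIB ΔIDR, of 21 tested (9.52% each way, against 2.7% and 2.43%). DESeq2 did not call FGF2 or PDGFRA.

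Among mesenchymal and neural crest transcription factors, 2 of 40 (5%, against 2.7% over all genes tested) were higher with NFIB WT (DLX1 and SNAI2) and 4 (10%, against 2.43%) with NFIB ΔIDR (TBX3, TFAP2A, NR2F1 and NR2F2). TBX3, a T-box repressor, stood at 65.6 and 62.2 CPM with NFIB ΔIDR, 44.4 and 46.2 CPM with EV and 31.8 and 33.5 CPM with NFIB WT (log2 ratio -0.98 ± 0.12, adjusted p = 0.00514). NR2F1, an orphan nuclear receptor, was at 31.7 and 32.1 CPM with NFIB ΔIDR, 32.3 and 32.4 CPM with EV and 19.9 and 20.1 CPM with NFIB WT, so that NFIB WT alone lay apart (log2 ratio -0.68 ± 0.13, adjusted p = 0.0213). DESeq2 did not call TFAP2A, NR2F1 or NR2F2. FOS, an immediate early gene, had NFIB WT apart on the other side, at 43.5 and 36.9 CPM against 12.1 and 15.9 CPM with NFIB ΔIDR and 14.8 and 13.7 CPM with EV (log2 ratio 1.51 ± 0.17, adjusted p = 0.00398). Of 14 immediate early genes tested, FOS alone (7.14%, against 2.7%) was higher with NFIB WT. FOSL2 alone (7.14%, against 2.43%) was higher with NFIB ΔIDR (log2 ratio -1.12 ± 0.22, adjusted p = 0.0248), and DESeq2 did not call it. The median log2 fold change of that list was -0.27, with 5 of 14 above 0.

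Of 37 genes that EWS-FLI1 activates, 8 (21.6%, against 2.7% over all genes tested) were higher with NFIB WT (among them CAV1, CCND1, FCGRT, KDSR, NPY1R, RBM11 and RCOR1). Toward NFIB ΔIDR only the chromatin factor JARID2 was called, a share of 2.7% near the 2.43% over all genes tested. The median log2 fold change was 0.20. Without NFIB ΔIDR replicate 1 or 2 the 8 became 0, and without NFIB WT replicate 1 or 2 they became 19 or 17. NPY1R, a neuropeptide Y receptor typical of Ewing sarcoma, stood at 449 and 339 CPM with NFIB WT, 230 and 226 CPM with EV and 194 and 195 CPM with NFIB ΔIDR (log2 ratio 1.01 ± 0.14, adjusted p = 0.00686). Well-known targets of the fusion did not pass the test, with log2 fold changes of 0.08 for NR0B1, 0.22 for NKX2-2, 0.10 for PRKCB and -0.34 for STEAP1 (adjusted p = 0.776, 0.321, 0.603 and 0.0798). Of 25 mesenchymal genes that EWS-FLI1 represses, 3 (12%, against 2.7%) were higher with NFIB WT (LOX, TIMP1 and TNC) and 4 (16%, against 2.43%) with NFIB ΔIDR (FN1, IGFBP3, NR2F1 and NR2F2). DUSP26, whose locus holds a GGAA repeat enhancer, stood at 9.89 and 9.67 CPM with NFIB WT against 9.16 and 7.74 CPM with NFIB ΔIDR, a difference that did not pass the test (log2 ratio 0.20 ± 0.19, adjusted p = 0.562). TNFSF4 had too few counts to be tested, with 0.135 to 0.543 CPM in the 6 libraries.

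Of 45 replication-dependent histone genes tested, 13 (28.9%, against 2.7% over all genes tested) were higher with NFIB WT. Toward NFIB ΔIDR, 2 (4.44%, against 2.43%) were called, HIST1H2BE and HIST1H2BN. The median log2 fold change of the list was 0.24. HIST1H3J stood at 295 and 225 CPM with NFIB WT, 190 and 193 CPM with EV and 111 and 142 CPM with NFIB ΔIDR (log2 ratio 1.03 ± 0.16, adjusted p = 0.0118). The groups did not overlap. Histone genes are near-identical copies whose reads may be split between them. Neither edgeR nor DESeq2 called any of 24 S-phase entry genes (median 0.04) or 24 mitosis genes (median -0.04). In edgeR, 5 S-phase genes at an unadjusted p under 0.05 were higher with NFIB WT, and the mitosis genes at that level were 2 in each direction. With the correction for GC content and length, 13 histone genes were higher with NFIB WT and 1 with NFIB ΔIDR, among the 43 with a GC value. Without NFIB ΔIDR replicate 1 or 2, 1 histone gene was higher with NFIB WT, and without NFIB WT replicate 1 or 2, 28 or 22 were.

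Metabolic lists other than lipid synthesis held fewer calls. Of 36 nuclear genes of oxidative phosphorylation, 4 (11.1%, against 2.7% over all genes tested) were higher with NFIB WT, namely ATP5A1, ATP5B, CYC1 and NDUFA4. None was higher with NFIB ΔIDR, and the median log2 fold change was 0.15. Of 18 glycogen genes, GYG2, PHKA2 and PPP1R3B (16.7%, against 2.7%) were higher with NFIB WT. PPP1R3B, which targets a phosphatase to glycogen, stood at 88.3 and 70.8 CPM with NFIB WT, 45.3 and 36.8 CPM with EV and 30.0 and 23.2 CPM with NFIB ΔIDR (log2 ratio 1.56 ± 0.16, adjusted p = 0.00336). In the glycolysis and hypoxia list, 0 of 25 were higher with NFIB WT and 2 (8%, against 2.43% over all genes tested), NDRG1 and PFKFB3, with NFIB ΔIDR. DESeq2 called neither and called 1 other member toward NFIB WT, and at an unadjusted p under 0.05 the counts were 6 and 3. DESeq2 also did not call CYC1 or PHKA2, and CYC1 went from a log2 fold change of 0.44 (adjusted p = 0.0458) to 0.38 (adjusted p = 0.0585) with the correction for GC content and length.

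Lipid mediator and antioxidant genes were called singly. Of 12 genes of lysophosphatidic acid and sphingosine phosphate signalling, the enzyme gene ENPP2 and the receptor gene LPAR1 (16.7%, against 2.7% over all genes tested) were higher with NFIB WT. LPAR1, a receptor for the product of ENPP2, stood at 108 and 96.6 CPM with NFIB WT, 76.5 and 75.5 CPM with EV and 65.4 and 65 CPM with NFIB ΔIDR (log2 ratio 0.64 ± 0.11, adjusted p = 0.0172). The groups were ordered without overlap. Of 28 selenoprotein and antioxidant genes, SELENBP1, the thioredoxin gene TXN and the peroxiredoxin gene PRDX2 (10.7%, against 2.7%) were higher with NFIB WT. NQO1, a quinone reductase, was higher with NFIB ΔIDR, a share of 3.57% against 2.43%. NQO1 stood at 29.0 and 29.7 CPM with NFIB ΔIDR, 19.5 and 21.2 CPM with EV and 18.9 and 17.8 CPM with NFIB WT (log2 ratio -0.69 ± 0.13, adjusted p = 0.0229), and DESeq2 called neither NQO1 nor PRDX2. TXN passed narrowly (adjusted p = 0.0499) and was not called with RLE factors, library totals or a filter of 1 CPM. Of 11 integrin genes, the beta chains ITGB5 and ITGB8 (18.2%, against 2.7%) were higher with NFIB WT, by log2 ratios of 0.47 and 1.18, and DESeq2 called neither.

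IFI44L and its neighbour IFI44 lay on the other side of 0 from the median of the interferon genes. Of 20 interferon response and antigen presentation genes tested, 3 (15%, against 2.7% over all genes tested) were higher with NFIB WT, and 0 of these listed genes with NFIB ΔIDR. The 3 were IFI44L, IFI44 and B2M, the light chain of class I molecules. CXCL10, which is also interferon-inducible but was not in the list, was higher with NFIB ΔIDR (log2 ratio -2.38 ± 0.25, adjusted p = 0.00336). IFI44 stood at 94.6 and 86.3 CPM with NFIB WT, 69 and 66.6 CPM with EV and 53.2 and 53.3 CPM with NFIB ΔIDR (log2 ratio 0.75 ± 0.11, adjusted p = 0.0109). The median of the list was -0.28, with 6 of 20 above 0, and classical members such as IFIT1 (-0.98, adjusted p = 0.171) and OAS3 (-0.37, adjusted p = 0.13) did not pass. At an unadjusted p under 0.05, 6 members were higher with NFIB ΔIDR, and DESeq2 called none of them. In the NF-kappaB list CXCL8, another chemokine, was higher with NFIB ΔIDR at 2.29 and 3.36 CPM against 0.749 and 0.387 CPM with NFIB WT (log2 ratio -2.31, adjusted p = 0.0304). It was the only call among 8 (12.5%, against 2.43% over all genes tested). DESeq2 gave it no adjusted p.

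Epithelial and germline lists held calls only toward NFIB ΔIDR at this threshold. Of 16 epithelial and cornified envelope genes tested, CSTA, the splicing factor ESRP1 and the keratin KRT8 (18.8%, against 2.43% over all genes tested) were higher with NFIB ΔIDR. KRT8 stood at 11.3 and 9.79 CPM with NFIB ΔIDR, 6.38 and 5.90 CPM with EV and 3.0 and 4.64 CPM with NFIB WT (log2 ratio -1.46 ± 0.25, adjusted p = 0.0149). ESRP1 stood at 9.97 and 8.77 CPM with NFIB ΔIDR against 2.77 to 4.61 CPM in the other libraries (log2 ratio -1.56 ± 0.23, adjusted p = 0.00988). Of 10 germline genes, LEUTX and TRIM43 (20%, against 2.43% over all genes tested) were higher with NFIB ΔIDR. Both are active in the early embryo, and their log2 fold changes were -2.72 and -2.31. With NFIB WT they rested on few counts, 3 and 5 for LEUTX and 5 and 8 for TRIM43. The control lay nearer NFIB ΔIDR for both, whereas it lay nearer NFIB WT for CSTA, ESRP1 and KRT8. TRIM43 belongs to a family of near-identical copies.

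**Figure D5:**
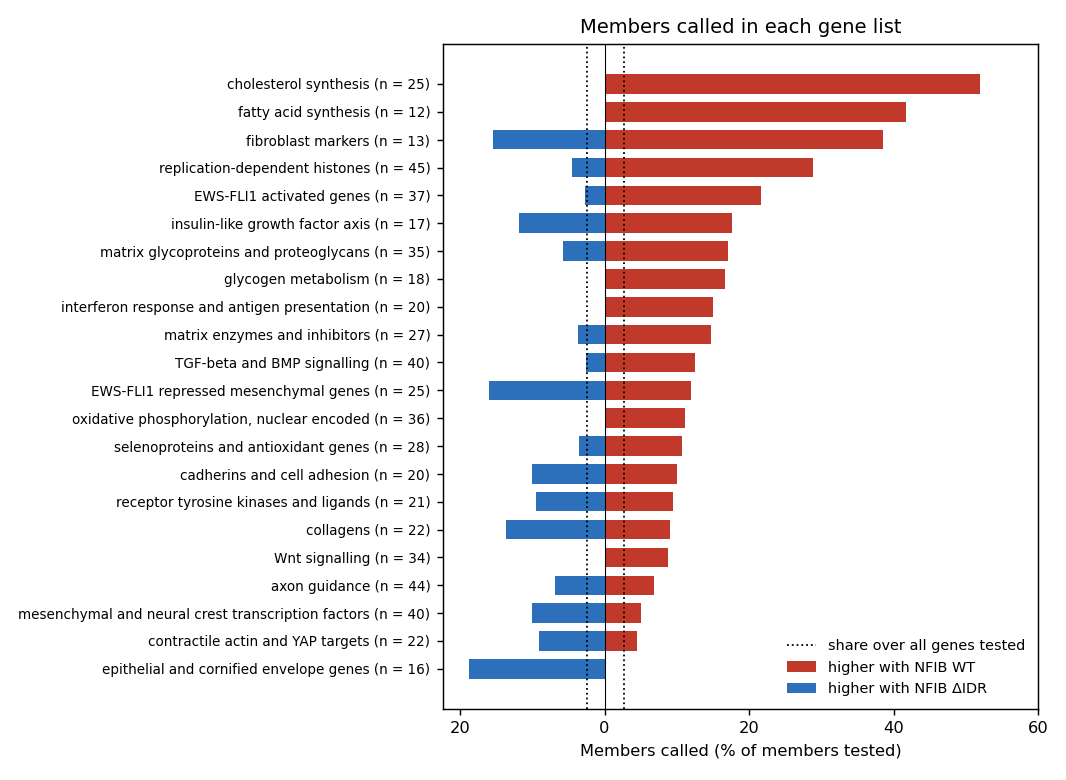
Share of tested members called higher with NFIB WT (red, to the right) and higher with NFIB ΔIDR (blue, to the left) in each list with at least 10 members tested and at least 3 called, with the number tested in brackets. Dotted lines mark the shares over all genes tested (2.7% and 2.43%); cholesterol synthesis reaches 52% on the right and has no bar on the left.

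Some genes, such as LOX, are in more than 1 list, so their calls count in each. Of the 48 lists, 42 held at least 1 called member, with 5.13% of all genes tested called in either direction. The 6 with none were S-phase entry, mitosis, neuronal and glial genes (28 tested), small structural RNAs (15 tested, median 0.48), and endothelial and leukocyte markers. In DESeq2 these 6 lists held no call either, and at an unadjusted p under 0.05 edgeR had 2 neuronal and glial genes and 5 small structural RNAs higher with NFIB WT and 5 neuronal and glial genes higher with NFIB ΔIDR. Of 47 cytosolic ribosomal protein genes, RPLP0 and RPSA were higher with NFIB WT by 1.35- and 1.40-fold, a share of 4.26% near the 2.7% over all genes tested.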

How the data were processed

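Per the labels and the study's methods, the authors isolated total RNA, made CORALL libraries, converted reads with CASAVA 2.19, aligned them to hg19 with STAR 2.4.0h and counted fragments in RefSeq genes with featureCounts. The deposited values are raw, unnormalized gene counts of each library. The sources used here do not say whether counting used strand or molecular identifiers, so a molecule may have been counted more than once.

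The filter for low counts was filterByExpr on the 4 construct libraries (minimum count 10, minimum total 15). TMM factors and quasi-likelihood F tests came from edgeR 4.0.16, run in R 4.3.3 (common biological coefficient of variation 0.0912). The Benjamini-Hochberg adjustment covered all 13244 tested genes, of which 3080 had an unadjusted p under 0.05. The SE of a log2 fold change was taken from its F statistic. The EV libraries stayed out of the fit. The control level was the position of the EV mean between the construct means on the log2(CPM + 0.5) scale, with no test. The study's methods name DESeq2 for differential expression; DESeq2 1.42.0 was an alternative here, as were other scaling factors, filters and thresholds, robust estimation, a replicate block, a fit of all 6 libraries and omission of single libraries. A fit corrected for base composition and transcript length (loess span 0.3, for the 96.9% of genes whose GC content was known) was added after seeing the data.

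The comparison, the 48 gene lists (1282 genes, from textbook knowledge) and the rule for named genes were chosen with earlier results of these data known. The rule named NFIB, IGFBP5, SELENBP1, CSTA, NFIA, TNFSF4 and DUSP26, up to 12 called genes with the highest and 12 with the lowest log2 fold change among those whose libraries did not overlap and whose higher construct averaged 5 CPM or more, up to 6 of the most abundant called genes in each direction, and for each list the up to 4 called members of lowest p. PMVK, NFIC, NFIX, PTPRC, further listed genes and the genes of the observations were named after their values were seen. Lists are described by counts and medians, with no set test. Some genes that the rule names are not reported here.

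Deposited starts and ends are windows around transcription starts, so gene coordinates are from GENCODE v44 lifted to hg19. Promoter sequences are RefSeq on GRCh38.p14. Figures used matplotlib 3.10.9 in Python 3.11.15. The study's ChIP-seq, ATAC-seq and other data were not analysed here.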

Additional observations from a re-analysis of the deposited data

How the results depend on the processing

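Relative to 358 genes higher with NFIB WT and 322 higher with NFIB ΔIDR, the counts were 745 and 701 with all 6 libraries in a single fit, 911 and 894 without a filter, 556 and 735 at a fold of 1.5 with an unadjusted p under 0.05, and 61 and 29 at an adjusted p under 0.01. DESeq2 gave 252 and 147, with 63.2% of calls toward NFIB WT against 52.7% in edgeR. The correction for GC content and length gave 616 toward NFIB WT. Leaving out a library gave 13 to 2264 genes higher with NFIB WT and 7 to 2223 higher with NFIB ΔIDR, with the lowest counts without NFIB ΔIDR replicate 2 and the highest without NFIB WT replicate 2; the remaining lone library was then assumed to vary like the other group. In these fits no gene called in both was called in the opposite direction. The log2 fold change of NFIB ranged from -1.23 to -1.11 without a library, with an adjusted p of 0.0596 at -1.13 without NFIB ΔIDR replicate 2.

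With a block for the replicate number, 1029 and 1122 genes were called, including all 358 and 322. The numbers were not taken to pair the samples: the differences between replicate 1 and 2 of the constructs correlated at 0.06 over 13244 genes, with 2 pairs only.

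Of 122 named genes called, NFIB aside, 90 of 120 with a value stayed called in DESeq2, 116 of 121 with the GC and length correction, 34 without NFIB ΔIDR replicate 1, 12 without NFIB ΔIDR replicate 2, and 119 to 122 in every other fit. None changed sign. With 2 libraries per construct, a change that misses the threshold is not shown to be absent.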

Other observations

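Zinc finger genes were examined after their values were seen. Of 448 tested genes named ZNF with a number, most of which code for KRAB or other C2H2 zinc finger proteins, 21 (4.69%) were higher with NFIB ΔIDR and 1 (0.223%), ZNF709, was higher with NFIB WT, against 2.43% and 2.7% over all genes tested, and their median log2 fold change was -0.13. ZNF808 stood at 21.4 and 23.4 CPM with NFIB ΔIDR, 11.1 and 12 CPM with EV and 11.1 and 7.35 CPM with NFIB WT (log2 ratio -1.30 ± 0.20, adjusted p = 0.0112). The EV and NFIB WT libraries overlapped and NFIB ΔIDR lay above both. ZNF568 stood at 17.4 and 18.6 CPM with NFIB ΔIDR, 16.7 and 15.5 CPM with EV and 9.89 and 9.28 CPM with NFIB WT (log2 ratio -0.92 ± 0.16, adjusted p = 0.0162), so that NFIB WT was the lower group. The median GC content of these genes was 42.9%, against 46.6% over all genes tested. With the correction for GC content and length, 26 of 447 were higher with NFIB ΔIDR and 3 with NFIB WT. DESeq2 called 5 higher with NFIB ΔIDR and 0 with NFIB WT, and without NFIB ΔIDR replicate 1 or 2 edgeR called 2 or 0 higher with NFIB ΔIDR.

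Genes with NFIB ΔIDR above an EV mean that was itself below the NFIB WT mean, also named after their values were seen, included TP63, FTH1 and ALDH1A1. TP63, a transcription factor of basal epithelium, stood at 34.8 and 39.7 CPM with NFIB ΔIDR, 16.4 and 17.5 CPM with EV and 18 and 17.8 CPM with NFIB WT (log2 ratio -1.07 ± 0.14, adjusted p = 0.00589). FTH1, the ferritin heavy chain, stood at 205 and 194 CPM with NFIB ΔIDR, 111 and 122 CPM with EV and 116 and 142 CPM with NFIB WT (log2 ratio -0.64 ± 0.12, adjusted p = 0.0231). ALDH1A1, a retinaldehyde dehydrogenase, stood at 23.7 and 21.9 CPM with NFIB ΔIDR, 12.5 and 14.4 CPM with EV and 14.2 and 14.1 CPM with NFIB WT (log2 ratio -0.70 ± 0.14, adjusted p = 0.0274). With the control beyond NFIB ΔIDR, CCNA1, a cyclin of the germline, stood at 2.10 and 2.06 CPM in the NFIB WT pair, 6.06 and 6.87 CPM in the NFIB ΔIDR pair and 10.4 and 8.18 CPM with EV (log2 ratio -1.64 ± 0.27, adjusted p = 0.0136).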
